A study of Rattus norvegicus with 40 samples.

Results

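A set of 10 neuropeptide genes of inhibitory interneurons and of the stress system was followed through 4 rat brain regions, sampled 12 months after blast or sham exposure. They were chosen by gene name in the hippocampus table and joined by gene identifier to the tables of the other regions: Sst, Vip, Crh, Npy, Cck, Penk, Pdyn, Tac1, Cort and Crhbp. Of these 10 genes, 9 were found among the 25958 genes listed in any table, and 8 of them among the 20814 genes listed in all 4 tables. Cort, which encodes the somatostatin relative cortistatin, was not analysed here. Total RNA was sequenced from 5 blast and 5 sham libraries each of hippocampus, amygdala, anterior cortex and cerebellum, 40 libraries in all. The labels name no strain, sex, age at exposure or genotype, and they do not describe the blast. Libraries are named by their titles, a region code (Hip, Amy, AC or Cer) and a number, and the numbers recur over the regions. Nothing in the labels ties a number to an animal, so the p-values measure only the spread between these samples, which may be in part technical. For 1 amygdala sham library, the table column and the title give different numbers, and it is called the unnumbered library.

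Neuropeptides are cut from larger precursor proteins, stored in dense-core granules and released to act on receptors coupled to G proteins, usually more slowly than the fast transmitter of the same cell. In the cortex, hippocampus and amygdala, somatostatin (Sst), vasoactive intestinal peptide (Vip), neuropeptide Y (Npy) and cholecystokinin (Cck) mark classes of inhibitory interneurons, and Cck is also made by many excitatory cells. Corticotropin-releasing hormone (Crh) starts the hormonal stress response and also acts as a local transmitter, and its binding protein (Crhbp) holds it away from its receptors. Proenkephalin (Penk) and prodynorphin (Pdyn) are the precursors of opioid peptides, and Tac1 encodes the precursor of substance P and neurokinin A.

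Several of these genes are classic targets of cyclic AMP signalling through the response element TGACGTCA, which was described early in the somatostatin gene, and its shorter form is CGTCA. The promoter windows of Sst and Vip are shown because these genes had the largest differences in anterior cortex among the members with a sequence, that of Crhbp because it too holds the shorter motif, and that of Pdyn because it holds neither. The sequences are RefSeq promoters of the rat build GRCr8, from 100 bases before the annotated start to 20 bases after it, with the motif in capitals. They lie at chr11:90461446-90461565 on the + strand (Sst), chr1:44470380-44470499 on the + strand (Vip), chr2:28439427-28439546 on the - strand (Crhbp) and chr3:137366484-137366603 on the - strand (Pdyn).
Sst: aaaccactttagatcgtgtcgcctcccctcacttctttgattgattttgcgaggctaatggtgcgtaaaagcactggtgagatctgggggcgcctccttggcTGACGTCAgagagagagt
Vip: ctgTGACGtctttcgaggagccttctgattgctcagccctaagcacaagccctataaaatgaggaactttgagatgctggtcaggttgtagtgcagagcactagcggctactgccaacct
Crhbp: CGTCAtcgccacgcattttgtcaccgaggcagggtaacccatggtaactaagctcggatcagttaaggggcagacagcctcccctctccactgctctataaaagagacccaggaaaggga
Pdyn: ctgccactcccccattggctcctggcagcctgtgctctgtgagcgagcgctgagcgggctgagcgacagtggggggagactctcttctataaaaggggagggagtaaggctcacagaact
RefSeq promoter windows were at hand for 7 of the 10 genes, and Crh, Cck and Penk were not among them. Over 300 bases, 250 before and 50 after the start, TGACGTCA was found in 1 of the 7, Sst, at bases 3 to 10 after the annotated start. The shorter motif CGTCA was searched on both strands, as CGTCA or TGACG, and it also lies inside TGACGTCA. It was found in 5 of the 7 genes: in Sst, in Vip at bases -97 to -93, in Crhbp at bases -100 to -96, in Tac1 at bases -206 to -202 and in Cort at bases -105 to -101. Of 33469 promoters of the same length, 1.83% held TGACGTCA and 21.2% held CGTCA on either strand. A match is a description of the letters and says nothing of binding.

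The tables place Vip (ENSRNOG00000018808) on chromosome 1 at 42169501 to 42177582, Crh (ENSRNOG00000012703) on chromosome 2 at 104459999 to 104461863 and Crhbp (ENSRNOG00000017890) on chromosome 2 at 25141471 to 25153334. Cck (ENSRNOG00000019321) lies on chromosome 8 at 130120523 to 130127392, Penk (ENSRNOG00000008943) on chromosome 5 at 17056419 to 17061837, Pdyn (ENSRNOG00000026036) on chromosome 3 at 122194329 to 122206671 and Tac1 (ENSRNOG00000007374) on chromosome 4 at 33638709 to 33646819. Sst (ENSRNOG00000001837) lies on chromosome 11 at 80358211 to 80359444. The build of these positions is unstated in the sources used here.

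Library totals ran from 11268097 to 37128383 counts. In sham libraries the summed level of 10 cerebellar marker genes was 5437 to 5891 CPM (counts scaled to the TMM-adjusted library size) in cerebellum and at most 204 CPM elsewhere, and 8 hippocampal markers summed to 616 to 1001 CPM in hippocampus and at most 525 CPM elsewhere. Anterior cortex libraries differed among themselves in how many genes had a count. In 4 of them, blast 8 and sham 11, 13 and 15, 16577 to 17845 genes were detected, against 18744 to 20748 in the other 6. The blast against sham values of the members in anterior cortex are therefore given with and without these 4 libraries. Counts and medians of the gene and marker lists there are given with all 10 libraries only.

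The blast comparison asks whether the peptide genes differed a year after exposure. In anterior cortex all 8 measured peptide genes had a higher mean in blast libraries, most of all Sst, Crh and Vip, but none passed the test. In amygdala 6 of 8 were higher, with Sst and Tac1 in front. In hippocampus 5 of 7 were lower, and 3 of 7 without sham library 14. Of all genes tested, 50% were higher in blast in anterior cortex, 49.7% in amygdala, 49% in hippocampus and 51.1% in cerebellum. In cerebellum only Sst and Penk had enough counts to be tested, and both differed little. Adjusted p-values are Benjamini-Hochberg values of edgeR's quasi-likelihood F test over all genes of a region (threshold 0.05 for a call). No gene was called in any region (percent called 0 of 15059 genes tested in hippocampus, 0 of 15280 in amygdala, 0 of 14918 in anterior cortex and 0 of 14769 in cerebellum). DESeq2 called 1, 20, 0 and 5 genes in the same order of regions, and no member was among them. At an unadjusted p under 0.05 edgeR had 1.89% of genes in hippocampus, 8.67% in amygdala, 4.32% in anterior cortex and 4.62% in cerebellum, and of the members 0 of 7, 1 of 8 (Sst), 1 of 8 (Vip) and 0 of 2. No member had all blast libraries above or all below all sham libraries. Over all genes, all blast libraries lay above all sham libraries in 0.126% in hippocampus, 0.785% in amygdala, 0.375% in anterior cortex and 0.42% in cerebellum, and below them in 0.146%, 0.733%, 0.268% and 0.311%.

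**Figure D1:**
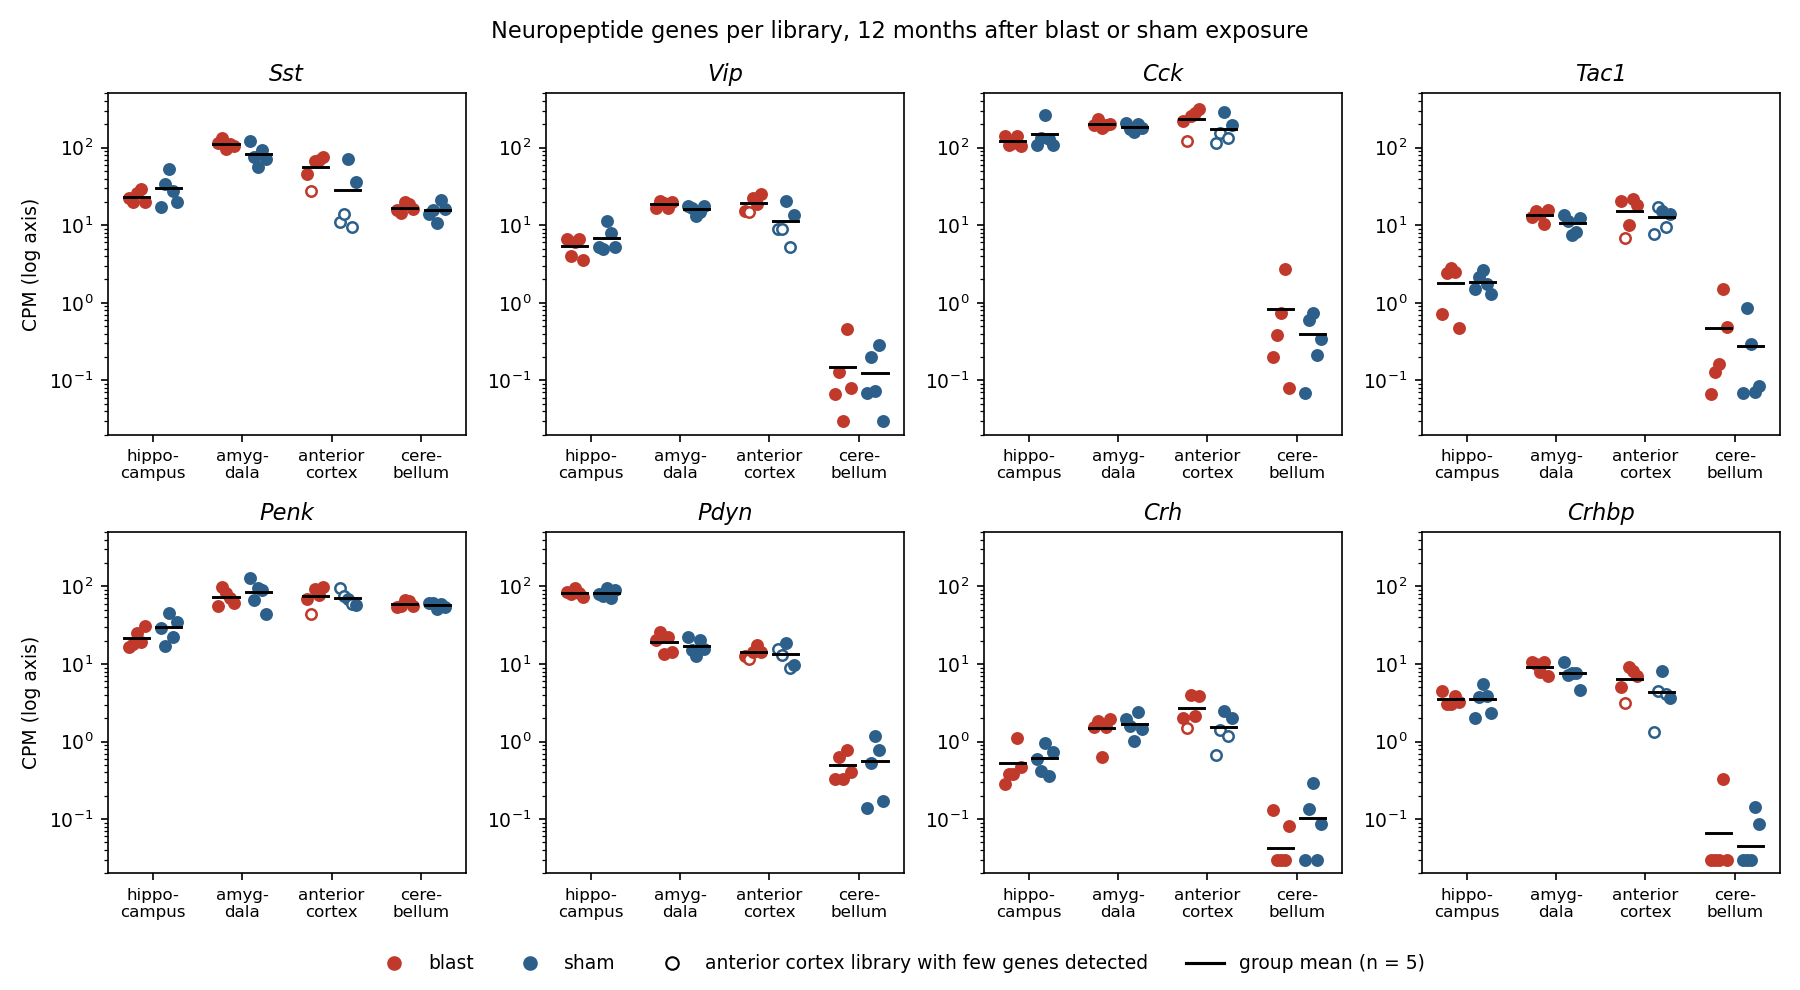
CPM of 8 neuropeptide genes (1 panel each, log axis) in every library, by region, with blast left of sham. Points are libraries, black lines are group means, open points are the 4 anterior cortex libraries with few genes detected, and libraries at 0 counts are drawn at the foot of the panel. In anterior cortex the open points are the lowest Sst values of their group, 27.5 CPM in blast and 9.45 to 14.2 CPM in sham.

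Sst is the gene of somatostatin, a peptide of dendrite-targeting interneurons. Among the members it had the widest spread in anterior cortex, taken as the ratio of the highest to the lowest library. Its level was 46.1, 27.5, 67.2, 69.2 and 76.0 CPM in blast libraries AC_4, AC_8, AC_22, AC_88 and AC_666, against 10.9, 14.2, 71.0, 9.45 and 36.0 CPM in sham libraries 11, 13, 14, 15 and 33. All 5 blast values lay above the sham median, but sham library 14 was as high as the high blast libraries, so the groups overlapped. The log2 fold change of blast over sham was 1.01 ± 0.5 (SE), with a 95% confidence interval of -0.08 to 2.1 (adjusted p = 0.799, edgeR). The mean was 57.2 ± 20.02 CPM in blast and 28.3 ± 26.2 CPM in sham libraries (SD, n = 5 each). In this bulk RNA, a change in the number of cells that make a peptide and a change in the RNA per cell cannot be told apart.

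Vip, which marks interneurons that inhibit other interneurons, was highest in blast libraries AC_666 and AC_22 and in sham library 14. It had 15.4, 15.03, 22.2, 18.9 and 25.2 CPM in blast libraries AC_4, AC_8, AC_22, AC_88 and AC_666, against 8.86, 8.94, 20.6, 5.27 and 13.4 CPM in sham libraries 11, 13, 14, 15 and 33. Sham library 14 was the only sham library inside the blast range for Vip, while for Sst sham library 33 was inside it too. The log2 fold change was 0.76 ± 0.31 (SE; interval 0.09 to 1.42), and the adjusted p in edgeR was 0.799. In the authors' deposited table Vip in anterior cortex had a log2 fold change of 0.44, a p of 0.0163 and an adjusted p of 0.995.

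Crh and its binding protein were at low levels in anterior cortex. Crh had 2.02, 1.503, 3.96, 2.14 and 3.88 CPM in blast libraries AC_4, AC_8, AC_22, AC_88 and AC_666, against 0.667, 1.41, 2.48, 1.18 and 2 CPM in sham libraries 11, 13, 14, 15 and 33. The ranges overlapped between 1.503 and 2.48 CPM, and the log2 fold change was 0.8 ± 0.41 (SE; interval -0.1 to 1.69, adjusted p = 0.799, edgeR). Crhbp ran from 3.18 to 9.12 CPM in blast and from 1.33 to 8.07 CPM in sham, a log2 fold change of 0.58 ± 0.4. Cck followed with 0.43 ± 0.28, Tac1 with 0.27 ± 0.32, Penk with 0.11 ± 0.2 and Pdyn with 0.08 ± 0.21, all with an adjusted p of 0.799 or more in edgeR. The median log2 fold change of the 8 members was 0.5, and that of all genes tested in anterior cortex was 0.

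Of the 8 members, Sst, Cck and Crh were separated in anterior cortex by the number of genes detected in a library, and the other 5 overlapped. The share of all genes separated in this way was not computed, so the separation cannot be read as particular to peptide genes. Across the 4 libraries with few genes Sst ran from 9.45 to 27.5 CPM, and across the other 6 from 36.0 to 76.0 CPM, with no overlap. Cck was likewise apart, with 114 to 154 CPM in the 4 libraries and 195 to 312 CPM in the other 6, and so was Crh, with 0.667 to 1.503 CPM and 2 to 3.96 CPM. Vip, with 5.27 to 15.03 CPM in the 4 libraries and 13.4 to 25.2 CPM in the other 6, and Crhbp, with 1.33 to 4.47 CPM and 3.68 to 9.12 CPM, overlapped little. Tac1, Pdyn and Penk overlapped more, Penk with 44.1 to 94.1 CPM in the 4 libraries and 57.4 to 97.6 CPM in the other 6. Since 3 of the 4 libraries were sham and 1 was blast, their part in the group means differed. Without them, with 4 blast and 2 sham libraries left, the log2 fold change was 0.26 ± 0.26 for Sst, 0.26 ± 0.22 for Vip and 0.42 ± 0.38 for Crh (SE, adjusted p = 0.999 each, edgeR). Penk then had 0.41 ± 0.14 (adjusted p = 0.999, edgeR). All 8 members still had positive values, from 0.03 to 0.42 with a median of 0.26. Leaving out sham library 14 instead moved Sst to 1.69 ± 0.41 and Vip to 1.09 ± 0.26 (adjusted p = 0.389 each, edgeR), with a median over the 8 members of 0.8.

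**Figure D2:**
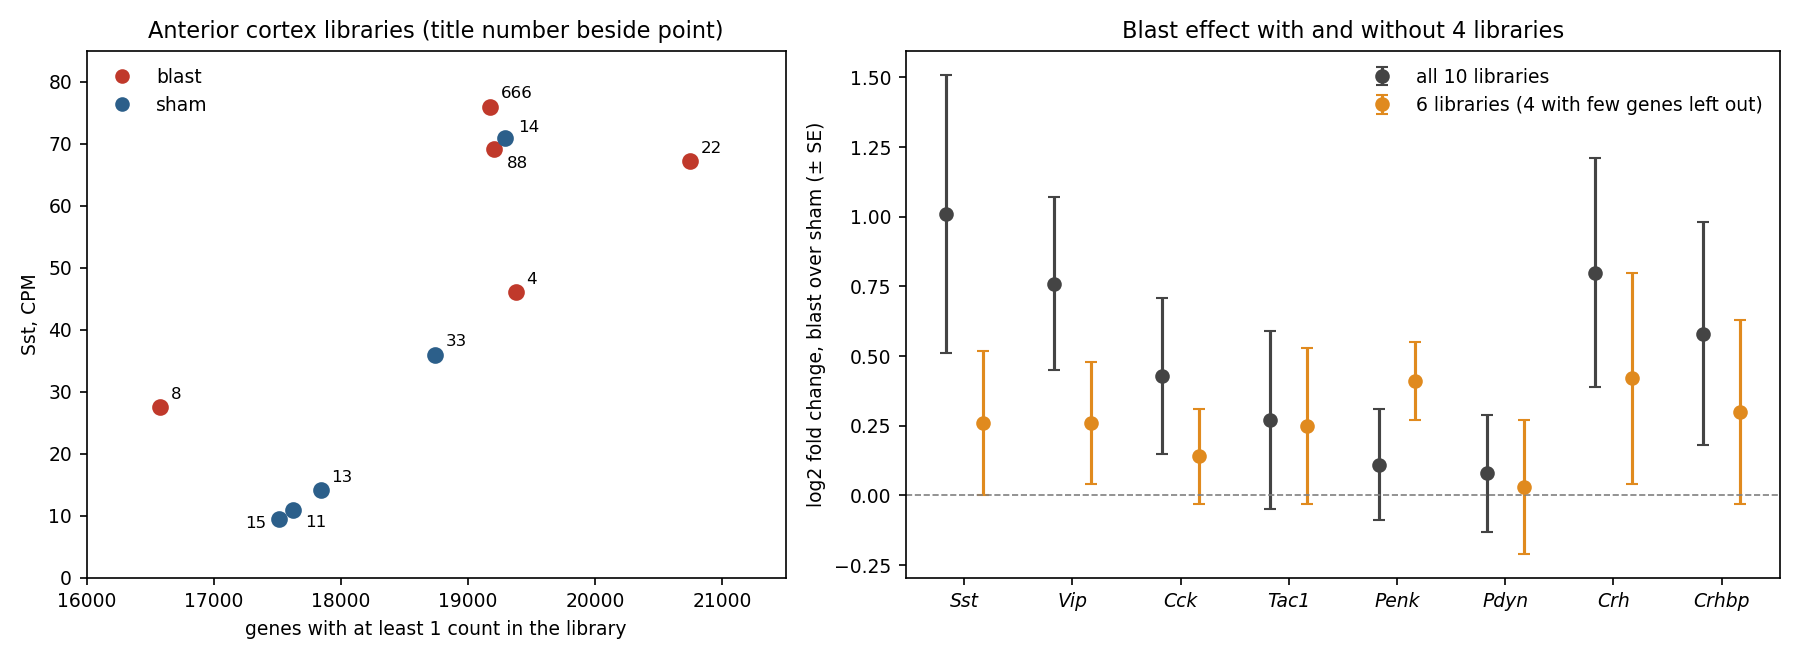
Left, Sst in CPM against the number of genes with at least 1 count in each anterior cortex library, with the title number beside each point. Right, log2 fold change of blast over sham (± SE) with all 10 libraries and with the 4 libraries with few genes left out. The 4 libraries with the fewest genes have the 4 lowest Sst values, and the Sst value on the right is 1.01 with all libraries and 0.26 without the 4.

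General interneuron markers were summed in the same anterior cortex libraries. The 17 of 18 listed markers in the table, among them the GABA-synthesis genes Gad1 and Gad2, summed to 803 to 1482 CPM in blast libraries and 977 to 1115 CPM in sham libraries. Their median log2 fold change was 0.01 over 17 tested genes, and no marker in the table was at 0 in any library. Markers of striatal projection neurons, cells that make much Penk, Pdyn and Tac1, summed to 688 to 1050 CPM in blast and 828 to 1289 CPM in sham libraries, over 16 genes with a median log2 fold change of -0.208, of which 12.5% were higher in blast. This striatal sum was 1050 to 1289 CPM in the 4 libraries with few genes and 688 to 1041 CPM in the other 6. The part of these markers in the peptide values was not tested.

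In amygdala, the nucleus complex of fear learning, Sst had 113, 134, 96.3, 112 and 105 CPM in blast libraries Amy_4, Amy_8, Amy_22, Amy_88 and Amy_666, against 121 CPM in sham library 11, 76.2 CPM in the unnumbered library, and 56.0, 94.1 and 71.2 CPM in sham libraries 14, 15 and 33. Each blast value lay above 4 of the 5 sham values, and sham library 11 lay inside the blast range. The log2 fold change was 0.42 ± 0.16 (SE; interval 0.08 to 0.77, adjusted p = 0.517, edgeR). In the authors' deposited table Sst in amygdala had a log2 fold change of 0.20 with a p of 0.0437 and an adjusted p of 0.263. This fold change, like that of Vip in anterior cortex, comes from the authors' own test and is smaller than the edgeR value. The reason was not tested. Leaving out each library in turn gave 0.31 ± 0.14 without sham library 14 to 0.59 ± 0.13 without sham library 11 (adjusted p = 0.818 and 0.193, edgeR).

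Tac1, the substance P precursor, had 12.7, 15.2, 13.9, 10.3 and 15.7 CPM in amygdala blast libraries Amy_4, Amy_8, Amy_22, Amy_88 and Amy_666, against 13.5 CPM in sham library 11, 11.2 CPM in the unnumbered library, and 7.53, 8.14 and 12.3 CPM in sham libraries 14, 15 and 33. The 2 sham libraries 14 and 15 lay below all blast libraries and the rest overlapped, with a log2 fold change of 0.36 ± 0.17 (SE, interval -0.01 to 0.73, adjusted p = 0.578, edgeR). The authors' own test gave Tac1 in amygdala a log2 fold change of 0.20 and a p of 0.0391, with no adjusted p. Vip ran from 16.7 to 20.3 CPM in blast and from 13.1 to 17.9 CPM in sham (0.2 ± 0.11). Crhbp (0.29 ± 0.19), Pdyn (0.17 ± 0.19) and Cck (0.13 ± 0.09) also had positive values and did not pass the test. Penk (-0.21 ± 0.22) and Crh (-0.16 ± 0.32) had negative values. The median of the 8 members was 0.18, and of all amygdala genes -0.001. Striatal projection neuron markers in amygdala summed to 648 to 760 CPM in blast and 711 to 851 CPM in sham libraries, with a median log2 fold change of -0.126 over 15 tested genes. Of 8 hypothalamic genes, 7 were in the table, and they summed to 7.09 to 26.3 CPM in blast and 6.74 to 84.0 CPM in sham libraries, the highest being sham library 33 and, at 37.6 CPM, sham library 14. The part of either list in the peptide values was not tested.

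In hippocampus the direction was the other way for most members. Sst had 22.2, 20.1, 25.8, 29.1 and 19.97 CPM in blast libraries Hip_4, Hip_8, Hip_22, Hip_88 and Hip_666, against 17.3, 33.9, 53.9, 27.8 and 20.01 CPM in sham libraries 11, 13, 14, 15 and 33. All blast values lay inside the sham range, whose top was sham library 14. The log2 fold change was -0.39 ± 0.27 (SE; interval -0.97 to 0.2, adjusted p = 0.998, edgeR). Penk, the enkephalin precursor, had 16.5, 17.9, 24.9, 19.3 and 30.9 CPM in blast libraries Hip_4, Hip_8, Hip_22, Hip_88 and Hip_666, against 29.2, 17.3, 45.9, 22.3 and 35.2 CPM in sham libraries 11, 13, 14, 15 and 33. Its log2 fold change was -0.45 ± 0.26 (interval -1.01 to 0.1), the lowest of the members there.

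Sham library 14 had the highest hippocampal level of Sst, Vip, Cck, Penk and Crhbp. In this library 8 hippocampal markers summed to 616 CPM and 11 excitatory neuron markers to 5530 CPM, both the lowest of the 10 hippocampal libraries. The 8 hypothalamic genes, Pomc among them, summed to 35.6 CPM there, against 5.28 to 15.99 CPM in the other hippocampal libraries. Pomc alone averaged 7.56 ± 13 CPM (SD) in sham, and its log2 fold change moved from -2.82 to -0.71 without library 14. In that library 2 of the 8 genes were at 0 counts. The sum thus leans on Pomc and cannot be read as a trait of the whole list. The part of these lists in the peptide values was not tested. Vip was at 3.52 to 6.63 CPM in blast and 4.91 to 11.2 CPM in sham (-0.37 ± 0.28), and Cck at 105 to 141 CPM in blast and 109 to 262 CPM in sham (-0.28 ± 0.22). Without sham library 14 the log2 fold change was -0.08 ± 0.19 for Sst, -0.24 ± 0.23 for Penk, -0.11 ± 0.24 for Vip and 0.03 ± 0.11 for Cck, and the count of members was 4 higher and 3 lower, with a median of 0.03 against -0.28 with all libraries. Pdyn, which is abundant in dentate granule cells, was the steadiest member in hippocampus. It had 85.3, 79.5, 95.1, 82.5 and 73.1 CPM in blast libraries Hip_4, Hip_8, Hip_22, Hip_88 and Hip_666, against 80.8, 74.8, 94.6, 71.6 and 90.9 CPM in sham libraries 11, 13, 14, 15 and 33. The ranges nearly coincided, and the log2 fold change was 0.01 ± 0.1 (interval -0.21 to 0.23). Tac1 (-0.1 ± 0.45) and Crhbp (0.01 ± 0.27) had wide errors at levels of 0.474 to 2.77 CPM and 3.02 to 4.49 CPM in blast, and of 1.29 to 2.69 CPM and 2.03 to 5.58 CPM in sham. Crh had 39 counts in all in blast and 46 in sham and was too low to be tested. Choroid plexus genes stood high in 3 hippocampal libraries, at 10800 CPM in blast 8, 9053 CPM in blast Hip_666 and 6391 CPM in sham 11, against 118 to 438 CPM in the other 7, and without these 3 libraries Sst was at -0.39 ± 0.29, Vip at -0.18 ± 0.3, Penk at -0.57 ± 0.32 and Cck at -0.25 ± 0.27.

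**Figure D3:**
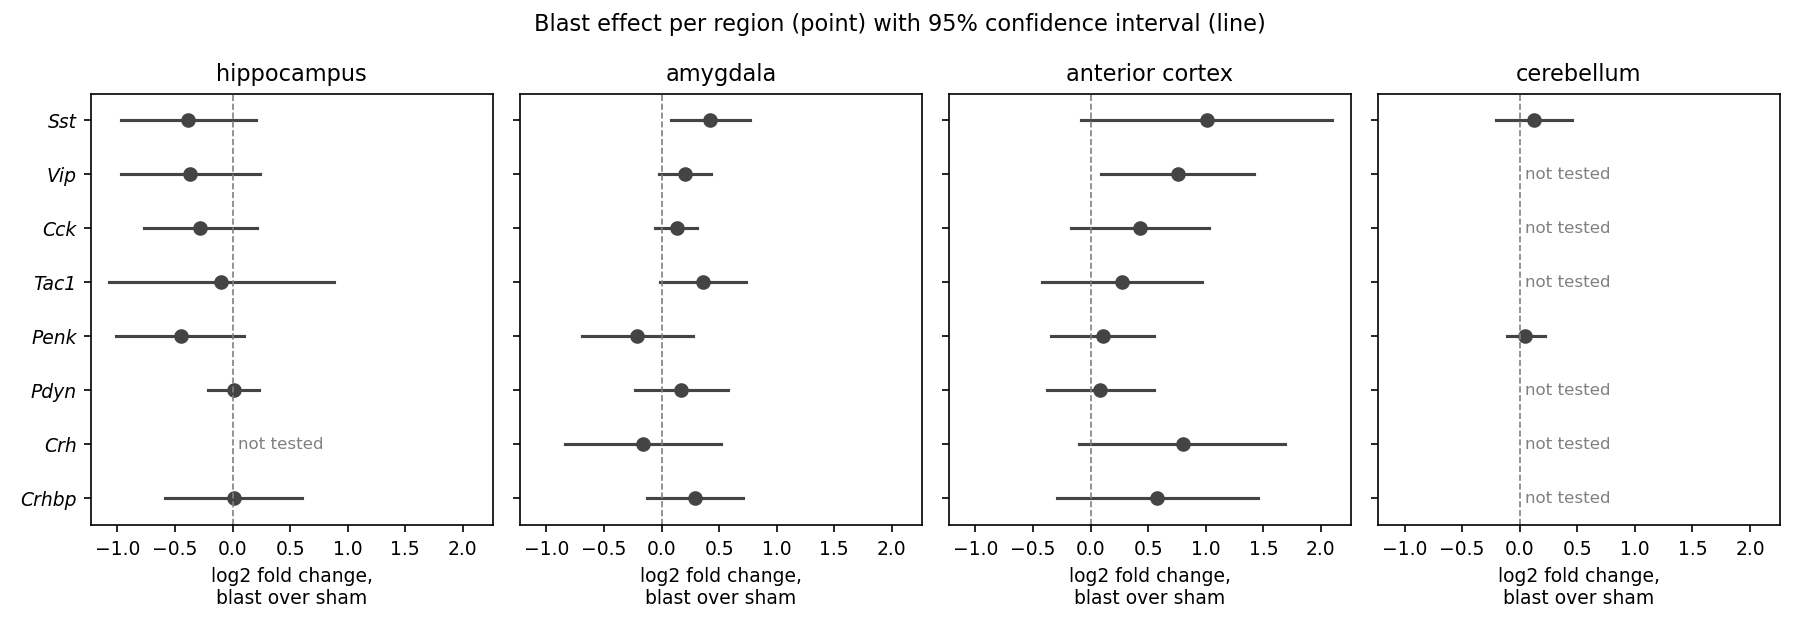
Log2 fold change of blast over sham for 8 neuropeptide genes in each region (points) with the 95% confidence interval (lines), from edgeR on 5 blast and 5 sham libraries. The intervals exclude 0 for Sst in amygdala (0.08 to 0.77) and Vip in anterior cortex (0.09 to 1.42), both before adjustment over all genes.

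In cerebellum 7 of the 9 members with a row had too few counts for the test. Sst had 15.7, 14.2, 19.8, 18.8 and 16.1 CPM in blast libraries Cer_4, Cer_8, Cer_22, Cer_88 and Cer_666, against 14.1, 15.6, 10.7, 21.0 and 16.2 CPM in sham libraries 11, 13, 14, 15 and 33 (0.12 ± 0.15, interval -0.21 to 0.45). Penk was at 54.6 to 66.9 CPM in blast and 51.2 to 61.9 CPM in sham (0.05 ± 0.08, interval -0.11 to 0.22). Both groups overlapped for both genes. The SDs of Sst and Penk in CPM were smaller here than in the other regions, but Sst also had its lowest mean here. Choroid plexus genes summed to 2797 CPM in blast library Cer_8, 3609 CPM in blast library Cer_22 and 1693 CPM in sham library 33. The sums were 158 to 275 CPM in the other cerebellar libraries, and the comparison was not run without the high ones. Of the low members, Cck had 61 counts in all in blast, 42 of them in library 88, and 27 in sham. Tac1 had 34 counts in blast, 23 of them in library 88, and 20 in sham, and Vip had 11 in blast, 7 of them in library 88, and 9 in sham.

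Npy could not be read as a level. It was listed in the hippocampus and cerebellum tables, with 2 counts in hippocampal blast library Hip_666, 3 counts in cerebellar blast library 4, 2 counts in hippocampal sham library 14 and 0 in the other 17 libraries of those regions. A count of 0 allows up to 3 counts, 0.157 to 0.259 CPM in the hippocampal and 0.193 to 0.257 CPM in the cerebellar libraries, for counting error only. On the same strand of chromosome 4, 8901 bases beyond the end of Npy (79557854 to 79565097), the tables list LOC100912228, a gene of 575 bases against 607 for Npy whose description reads neuropeptide. RefSeq for GRCr8 names 1 gene Npy and 0 genes LOC100912228. Whether reads of Npy were shared with this gene was not tested, and its counts are given with the results marked for a closer look.

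Whether the blast effect differed between regions was tested in 1 edgeR model of 40 libraries and 16378 genes. The difference between anterior cortex and the mean of the other 3 regions was 1.29 ± 0.57 for Crh, 0.96 ± 0.41 for Sst and 0.74 ± 0.42 for Vip (log2, SE), with adjusted p-values of 0.47, 0.459 and 0.524. It lay between -0.04 and 0.32 for Tac1, Pdyn, Cck, Crhbp and Penk. No gene was called (percent called 0), while 10.1% of all genes tested had an unadjusted p under 0.05, and 5.34% of all genes tested had one with a positive difference, Sst and Crh among them. Vip, Crh, Cck, Pdyn, Tac1 and Crhbp had too few counts for a test in cerebellum, and Crh in hippocampus also, and they entered this model through the other regions. Their values here rest in part on those low counts, which for Crh were 39 in blast and 46 in sham in hippocampus and 3 in blast and 7 in sham in cerebellum. The F test of all 3 interaction terms had an adjusted p of 1 for each of the 8 members. Sst passed in 1 alternative: with all libraries numbered 14 left out, its difference was 1.62 ± 0.33 (adjusted p = 0.0122, edgeR) and 449 genes were called. Without the 4 anterior cortex libraries with few genes, it was 0.21 ± 0.33 (adjusted p = 1, edgeR).

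The mean blast effect over the 4 regions, from limma voom with the title number as a random block, was 0.39 ± 0.18 for Sst (log2, SE, adjusted p = 0.575, limma), and 8.36% of genes, Sst among them, had an unadjusted p under 0.05. The other 7 members lay between -0.11 and 0.23, with adjusted p-values of 0.82 or more (limma), and for 6 of them the mean takes in the low cerebellar counts. Of 16378 genes 1 was called, which is 0.00611%, and it was not a member. Without the 4 anterior cortex libraries the Sst value was 0.14 ± 0.13 (adjusted p = 0.967, limma).

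The genes that receive, cut and store these peptides were described from 3 lists. Of 19 receptors of the members, 15 were tested in hippocampus, 7 higher and 8 lower in blast with a median of -0.06, and 1 had an unadjusted p under 0.05. That gene, the somatostatin receptor Sstr1, averaged 11.6 ± 2.02 CPM in blast and 15.8 ± 1.81 CPM in sham (SD, n = 5 each), and all blast libraries lay below all sham libraries, as in 0.146% of genes there. Its log2 fold change was -0.44 ± 0.14 (SE, adjusted p = 0.998, edgeR), and -0.25 ± 0.14 without the 3 libraries with high choroid plexus sums. Next in order of p were the receptor genes Npy1r for neuropeptide Y (-0.23 ± 0.12), Oprm1 for opioids (0.51 ± 0.34) and Tacr1 for substance P (0.49 ± 0.4), which without those 3 libraries were at -0.12 ± 0.13, 0.27 ± 0.38 and 0.54 ± 0.55. In amygdala and anterior cortex the receptors were evenly split, with 8 higher and 8 lower of 16, and 7 higher and 8 lower of 15, and in cerebellum 4 were higher and 4 lower of 8.

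Of 15 processing enzymes and granule proteins, 14 were tested in anterior cortex, and 11 were higher and 3 lower in blast, with a median of 0.14 and no call. Pcsk1, the prohormone convertase that cuts many precursors, averaged 3.7 ± 2.15 CPM in blast and 1.66 ± 1.18 CPM in sham (SD, n = 5 each). Its log2 fold change was 1.15 ± 0.51 (SE, adjusted p = 0.799, edgeR), and 1.35 ± 0.55 without the 4 libraries with few genes (adjusted p = 0.999, edgeR). The chaperone gene Scg5 (0.41 ± 0.25), the granule peptide gene Vgf (0.31 ± 0.2) and the granin gene Scg3 (-0.14 ± 0.11) followed by p. Without the 4 libraries with few genes they were at 0.11 ± 0.16, 0.22 ± 0.17 and -0.11 ± 0.1. In hippocampus 1 of the 14 was higher and 13 lower, with a median of -0.09, beside a median of -0.004 over all genes tested there, 49% of which were higher. The 14 genes summed to 6203 CPM in sham library 14, against 4597 to 5231 CPM in the other hippocampal libraries. The count was not made without that library, so it cannot be read as a drop shared by the blast libraries.

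Of 25 other neuropeptide genes, 14 were tested in hippocampus, 6 higher and 8 lower in blast with a median of -0.14, and 2 had an unadjusted p under 0.05. Pomc, the precursor of melanocortins and beta-endorphin, averaged 1.08 ± 0.2 CPM in blast and 7.56 ± 13 CPM in sham (SD, n = 5 each), a log2 fold change of -2.82 ± 0.95 (SE, adjusted p = 0.998, edgeR). Without sham library 14 it was -0.71 ± 0.42 (adjusted p = 0.923, edgeR). Neuropeptide B (Npb, -0.7 ± 0.26), neurotensin (Nts, -0.55 ± 0.29) and gastrin-releasing peptide (Grp, -0.5 ± 0.33) came next by p. Without sham library 14 Npb was at -0.65 ± 0.28, Nts at -0.34 ± 0.27 and Grp at -0.11 ± 0.25. In anterior cortex 10 of 12 of these genes were higher and 2 lower, with a median of 0.27, and in amygdala 10 of 17 and in cerebellum 7 of 11 were higher. None of the 3 lists held a called gene in any region.

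Sham levels were compared between regions to describe where the RNA of each peptide gene was most abundant. Pdyn stood highest in hippocampus, Sst, Vip, Crhbp and Penk had their highest mean in amygdala, and Tac1 in anterior cortex. For Vip, anterior cortex was higher once its 3 sham libraries with few genes were left out. With all libraries the means of Cck and Crh lay close together in amygdala and anterior cortex. In anterior cortex sham libraries 14 and 33, which are not among those 3, Cck had 308 and 209 CPM, against an amygdala mean of 184 CPM. Crh had 2.64 and 2.15 CPM in these libraries, against an amygdala mean of 1.69 CPM. In cerebellum 6 of the 8 genes were at a mean of at most 0.511 CPM, while Sst and Penk were well measured. These levels come from 1 edgeR model of the 20 sham libraries with TMM over all of them, so CPM values differ slightly from those above, and 15695 genes were tested. The 3 anterior cortex sham libraries with few genes are in these means unless stated.

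Pdyn averaged 83.1 ± 10 CPM in hippocampus, 17.1 ± 3.91 CPM in amygdala, 14 ± 4.26 CPM in anterior cortex and 0.511 ± 0.399 CPM in cerebellum (SD, n = 5 each). No hippocampal library overlapped any library of another region. The log2 fold change of hippocampus was 2.28 ± 0.24 over amygdala, 2.56 ± 0.24 over anterior cortex and 7.31 ± 0.34 over cerebellum (SE, adjusted p = 4.3e-07, 6.42e-08 and 7.94e-14, edgeR). Amygdala and anterior cortex, its neighbours in the order of levels, differed by 0.28 ± 0.24 (adjusted p = 0.403, edgeR).

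Tac1 was low in hippocampus. It averaged 1.89 ± 0.55 CPM in hippocampus, 10.5 ± 2.64 CPM in amygdala, 13.4 ± 4.28 CPM in anterior cortex and 0.253 ± 0.312 CPM in cerebellum (SD, n = 5 each). Hippocampus lay below amygdala by a log2 fold change of -2.46 ± 0.36 and below anterior cortex by -2.81 ± 0.37 (SE, adjusted p = 3.56e-05 and 4.58e-06, edgeR), without overlap of libraries. Penk averaged 30.2 ± 11.2 CPM in hippocampus, 84.5 ± 31.3 CPM in amygdala, 74.8 ± 14.6 CPM in anterior cortex and 52.6 ± 4.09 CPM in cerebellum, and hippocampus was its lowest region. It differed there by -1.48 ± 0.24 from amygdala, -1.31 ± 0.24 from anterior cortex and -0.8 ± 0.24 from cerebellum (adjusted p = 0.000112, 0.000234 and 0.00786, edgeR). Amygdala and anterior cortex did not differ beyond their spread for Tac1 (-0.35 ± 0.33) or Penk (0.17 ± 0.24). Anterior cortex over cerebellum was not called for Penk (0.51 ± 0.24, adjusted p = 0.0718, edgeR), although the libraries did not overlap. It was called by DESeq2 (adjusted p = 0.0437), and by edgeR in 1 model of 40 libraries and with the gene length trend removed (adjusted p = 0.0458 and 0.0308).

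Sst averaged 30.7 ± 14.5 CPM in hippocampus, 83.6 ± 24.9 CPM in amygdala, 30.1 ± 28 CPM in anterior cortex and 14.2 ± 3.33 CPM in cerebellum (SD, n = 5 each). The amygdala libraries lay above all hippocampal and cerebellar libraries, with a log2 fold change of hippocampus over amygdala of -1.44 ± 0.43 (adjusted p = 0.0213, edgeR) and of amygdala over cerebellum of 2.56 ± 0.45 (adjusted p = 6.12e-05, edgeR). Amygdala over anterior cortex was 1.46 ± 0.44 (adjusted p = 0.0213, edgeR), but 0.54 ± 0.37 without the 3 anterior cortex libraries with few genes (adjusted p = 0.47, edgeR). The anterior cortex libraries were 11.3, 14.8, 75.6, 9.93 and 38.7 CPM in numbers 11, 13, 14, 15 and 33, so the 3 low values were those of the libraries with few genes. Hippocampus and anterior cortex differed by 0.03 ± 0.43, and by -0.87 ± 0.35 without those 3 (adjusted p = 0.0832, edgeR). Hippocampus and anterior cortex each exceeded cerebellum, by 1.12 ± 0.44 and 1.1 ± 0.44 (adjusted p = 0.0375 and 0.0382, edgeR), with overlapping libraries, and anterior cortex over cerebellum was 0.3 without the libraries numbered 14 (adjusted p = 0.469, edgeR).

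Vip averaged 6.92 ± 2.7 CPM in hippocampus, 16.1 ± 2.09 CPM in amygdala, 12.1 ± 6.35 CPM in anterior cortex and 0.114 ± 0.103 CPM in cerebellum (SD, n = 5 each). Hippocampus lay below amygdala (-1.21 ± 0.31, adjusted p = 0.00764, edgeR) and below anterior cortex (-0.8 ± 0.31, adjusted p = 0.0431, edgeR), and amygdala over anterior cortex was not called (0.41 ± 0.31). That last contrast was called without the libraries numbered 14 (0.81 ± 0.28, adjusted p = 0.0337, edgeR) and turned to -0.18 ± 0.31 without the 3 anterior cortex libraries with few genes. Crh averaged 0.613 ± 0.237, 1.69 ± 0.531, 1.64 ± 0.766 and 0.0939 ± 0.112 CPM in hippocampus, amygdala, anterior cortex and cerebellum. It was lower in hippocampus than in amygdala (-1.44 ± 0.46, adjusted p = 0.0314, edgeR) and than in anterior cortex (-1.41 ± 0.47, adjusted p = 0.0194, edgeR). Crhbp averaged 3.52 ± 1.41 CPM in hippocampus, 7.54 ± 2.06 CPM in amygdala, 4.59 ± 2.59 CPM in anterior cortex and 0.0412 ± 0.0593 CPM in cerebellum, and hippocampus against amygdala was not called (-1.08 ± 0.39, adjusted p = 0.0509, edgeR). It was called in 6 alternatives, DESeq2, the replicate block, 1 model of 40 libraries, the gene length trend removed, and without the libraries numbered 14 or the 3 anterior cortex libraries with few genes (adjusted p = 0.0217 to 0.0495 in DESeq2 or edgeR). Amygdala over anterior cortex was called for Crhbp without the libraries numbered 14 (1.06 ± 0.4, adjusted p = 0.0462, edgeR). Cck was not called among the 3 forebrain regions with all libraries, with 150 ± 64.1 CPM in hippocampus, 184 ± 20.9 CPM in amygdala and 187 ± 75.6 CPM in anterior cortex, against 0.358 ± 0.251 CPM in cerebellum, a log2 fold change of 9 ± 0.42 for anterior cortex over cerebellum. In alternatives it was called lower in hippocampus, by -0.65 ± 0.16 against amygdala without the libraries numbered 14 (adjusted p = 0.0081, edgeR). Against anterior cortex it was -0.53 ± 0.19 with the gene length trend removed and -0.77 ± 0.27 without the 3 anterior cortex libraries with few genes (adjusted p = 0.0252 and 0.0458, edgeR).

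Counted over the 8 members, hippocampus was higher than amygdala in 1 and lower in 5, against 9.14% of all genes higher and 11.5% lower. It was higher than anterior cortex in 1 and lower in 4 (22% and 21.7% of all genes) and higher than cerebellum in 7 and lower in 1 (27.9% and 25.4%). Amygdala was higher than anterior cortex in 1 and lower in 0 (10.3% and 11.4%), and higher than cerebellum in 8 and lower in 0 (30.8% and 27.8%). Anterior cortex was higher than cerebellum in 7 and lower in 0 (30.4% and 29.8%). Of these 35 calls, 25 held in every alternative run, and they include all 18 contrasts with cerebellum of Vip, Crh, Cck, Pdyn, Tac1 and Crhbp. In cerebellum these genes had too few counts for the blast test, from 3 (Crhbp) to 39 (Pdyn) summed over the sham libraries. They entered the sham model through the other regions. The 18 contrasts thus set a forebrain level against almost no counts, and their holding cannot be read as a test of stability. The 10 calls that were lost in at least 1 alternative were those of Sst other than amygdala over cerebellum, both of Vip and of Crh for hippocampus below another forebrain region, and those of Penk against cerebellum. The losses came when libraries numbered 11, 13, 14, 15 or 33 or the unnumbered library were left out, with the adjusted p then at 0.0503 to 0.469, or with the alternatives given with the processing.

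**Figure D4:**
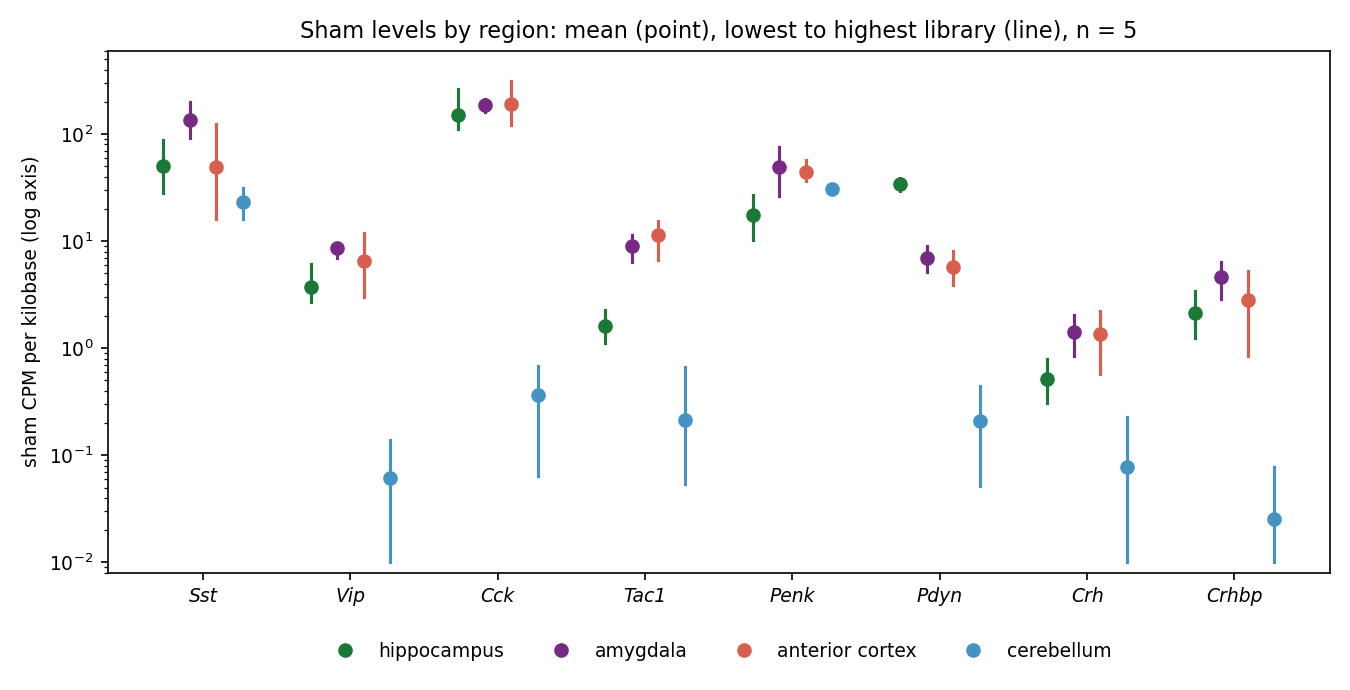
Sham levels of 8 neuropeptide genes in CPM per kilobase of gene length (log axis), by region. Points are means of 5 libraries and lines run from the lowest to the highest library, with 0 drawn at the foot of the axis. Hippocampal Pdyn (34.1 per kilobase) lies apart from the other regions, and 6 of the 8 genes lie below 0.4 per kilobase in cerebellum.

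Per kilobase of the gene length listed in the tables, levels of different genes can be set side by side. In hippocampus the order of mean sham levels was Cck at 152, Sst at 50.1, Pdyn at 34.1, Penk at 17.7, Vip at 3.74, Crhbp at 2.15, Tac1 at 1.61 and Crh at 0.513 CPM per kilobase. In amygdala it was Cck at 187, Sst at 136, Penk at 49.6, Tac1 at 8.95, Vip at 8.71, Pdyn at 7.01, Crhbp at 4.61 and Crh at 1.41. The anterior cortex had Cck at 190, Sst at 49.1, Penk at 44, Tac1 at 11.4, Vip at 6.54, Pdyn at 5.75, Crhbp at 2.8 and Crh at 1.37. Cck was thus the most abundant and Crh the least abundant of the 8 in all 3 forebrain regions, while in cerebellum Penk at 30.9 and Sst at 23.1 led and Cck was at 0.362.

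The genes with the most similar pattern over the 40 libraries were ranked by the root mean square difference of log2 CPM, each gene centred on its own mean, among 16377 other genes. Nearest to Sst were Rtbdn (0.49), Rab26 (0.5) and Gpx3 (0.51), beside a standard deviation of Sst itself of 1.19 over the libraries. Nearest to Crh were Olfm2 (0.51), Hrh3 (0.54) and Npas2 (0.6), with a standard deviation of 1.5. Nearest to Penk were Gap43 (0.39), Cdh22 (0.41) and Snx8 (0.47), with a standard deviation of 0.76. Among the members themselves the closest pair was Vip and Crhbp, at 0.61, and the farthest was Cck and Penk, at 3.74. These distances take in the differences between regions, which all 40 libraries share, and are given as a description.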

How the data were processed

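Total RNA of 40 rat brain libraries was purified with RNeasy columns and made into NEBNext Ultra libraries, per the labels. The submitters' processing notes name CASAVA without a version, and the aligner, counting tool, strand setting, build and annotation behind the counts were not given in the sources used here. The authors deposited raw read counts per Ensembl gene, 1 table a region, with log2 fold changes, p-values and adjusted p-values of their own test, quoted where named, and a gene length that is used here for levels per kilobase. Every gene listed in a table had a count in at least 1 of its libraries. Whether the counts used strand is unknown, so overlapping genes cannot be separated.

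Counts were analysed with edgeR 4.0.16 in R 4.3.3 (filterByExpr, TMM, two-sided quasi-likelihood F tests, Benjamini-Hochberg over all genes tested), limma 3.58.1 (voom, a block of 11 title numbers) and DESeq2 1.42.0 as an alternative. Blast was compared with sham within each region, sham regions with each other in 1 model. CPM use TMM-scaled library sizes, and totals of 11268097 to 37128383 counts limit low genes. Code was tested on simulated counts. Of 80 pairs of libraries of 1 group none was a duplicate (smallest chi-square per degree of freedom 6.3). The members and gene lists were chosen with earlier results of these data known. Named genes of a list are the 4 with the smallest p in the region where the list has most p-values under 0.05, and nearest genes are named for Sst, Crh and Penk; Npy was not in all tables. Marker lists of excitatory cortical neurons gave 3999 to 5020 CPM in blast and 4572 to 4935 CPM in sham anterior cortex. Alternatives were RLE size factors, no filter, DESeq2, voom, removal of a gene length trend, 1 model of 40 libraries, leaving out libraries that stand apart and leaving out each replicate.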

Additional observations from a re-analysis of the deposited data

Results flagged for a closer look

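Cck in hippocampus had a sham library far from the others: library 14 had 262 CPM and the next sham library 135 CPM, a gap of 0.826 of the range of the 5 sham values, above the Dixon limit of 0.71. It was the 1 such value among 50 groups of 5 libraries, and chance marks about 1 group in 20.

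LOC100912228, the gene beside Npy whose description reads neuropeptide, was in no comparison. It was marked only where its highest blast library was above its highest sham library, which was so in 3 regions. In hippocampus the highest blast library had 2 counts and the highest sham library 4. LOC100912228 had 436 counts in anterior cortex blast library 22, against 87 in sham library 33, the highest sham library. In cerebellum it had 157 counts in blast library 8, against 17 in sham library 11, and in amygdala 54 counts in blast library 8, against 1 in the highest sham library. Summed over 5 libraries, it had 443 counts in blast and 89 in sham in anterior cortex, 164 and 24 in cerebellum, 71 and 3 in amygdala, and 6 and 4 in hippocampus. In anterior cortex, cerebellum and amygdala 1 blast library held most of the blast counts, and anterior cortex library 22 was also the deepest of all, with 37128383 counts. The difference was not tested.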

How the results depend on the processing

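Under all alternatives run, none of the 423 values of members for blast against sham was called, and the smallest adjusted p was 0.152. Over all genes, DESeq2 called 1 gene in hippocampus, 20 in amygdala and 5 in cerebellum. In amygdala 2 genes were called without a filter and 1 with the gene length trend removed. In anterior cortex 2 were called without the 4 libraries with few genes, also with the length trend removed, and 34 in 1 model of 40 libraries. Leaving out each replicate gave 0 to 1 calls in hippocampus, 0 to 2 in amygdala, 0 in anterior cortex, 0 to 1 in cerebellum, 0 for the interaction F test, 0 to 449 for anterior cortex minus the other regions and 0 to 25 for the mean effect. The mean effect had 2 calls with no replicate block, 2 without a filter and 0 without the 4 libraries. The labels do not say what libraries of the same title number share. Over 57 pairs the correlation of same-numbered libraries ran from -0.164 to 0.444, with 18 over 0.1. The highest was that of sham library 14 of hippocampus with sham library 14 of anterior cortex. With the replicate block, sham amygdala against anterior cortex had 2243 calls, against 3415 without it, and Crh (hippocampus against amygdala), Vip (hippocampus against anterior cortex) and Sst (hippocampus and anterior cortex against cerebellum) lost their call. Leaving out each replicate gave 1421 to 5514 calls there. Without the 3 sham anterior cortex libraries, an alternative chosen after seeing the data like that of the 4 libraries with the length trend removed, 4097 genes were called for hippocampus against anterior cortex (6846 with them) and 1086 for amygdala against anterior cortex. Signs turned for values near 0. In hippocampus Tac1 was 0.02 and Crhbp -0.02 without the 3 libraries with high choroid plexus sums, and Crhbp was -0.01 in 1 model of 40 libraries. For anterior cortex minus the others, Tac1 was 0.01 with the replicate block and Cck -0.18 without the 4 libraries. For sham amygdala against anterior cortex, Cck was 0.11 with the block, Crh -0.12 with the length trend removed, and Vip -0.18 and Crh -0.51 without the 3 libraries. Sst for hippocampus against anterior cortex was -0.1 with the length trend removed and -0.87 without the 3 libraries. Leaving out each replicate, the range in hippocampus was -0.37 to 0.03 for Cck, -0.04 to 0.06 for Pdyn, -0.31 to 0.16 for Tac1 and -0.13 to 0.24 for Crhbp. It was -0.3 to 0.03 for Crh in amygdala and -0.02 to 0.24 for Pdyn in anterior cortex. For anterior cortex minus the others it was -0.11 to 0.49 for Cck, -0.09 to 0.22 for Pdyn, -0.34 to 0.24 for Tac1 and -0.06 to 1.26 for Crhbp. The mean effect was -0.19 to 0.13 for Crh and -0.07 to 0.32 for Tac1. In sham libraries Sst was -0.18 to 0.41 for hippocampus against anterior cortex, and Crh -0.22 to 0.41 and Cck -0.2 to 0.28 for amygdala against anterior cortex. The cause was not tested. Depth limits Crh, Tac1 and Crhbp in hippocampus, and 7 members in cerebellum.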
